A study of Mus musculus with 24 samples.

Results

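Restoration of p53 for 10 days in KPsh cells was followed in 6 of the series' 24 RNA-seq libraries, 3 from cells kept off doxycycline and 3 from cells kept on doxycycline. KPsh is a mouse pancreatic ductal adenocarcinoma (PDAC) line in which, as known of the study, doxycycline switches on an RNA hairpin that silences Trp53, so that taking the drug away lets the cells' own p53 return. The libraries were chosen by their labels and not by any measured value, and the description covers every gene of their count table that passed a filter on low counts, 13990 of 55401. The off-doxycycline cells and the on-doxycycline cells shared the line, DMEM with 10% serum, collagen-coated plates and fresh medium every other day, and the on-doxycycline cells had the drug at 1 μg/ml for the same 10 days. Loss of doxycycline and return of p53 are the same step in this line and cannot be told apart.

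Beside some results, 2 further comparisons of the series with libraries of their own are given. KPnull cells, a PDAC line given a doxycycline-inducible construct, made wild-type p53 (p53WT) or carried the construct without a cDNA (vector), both on doxycycline for 48 hours, with 2 libraries each. KPsh cells in which Pcyt2 was knocked out with a guide and then restored as a cDNA the guide cannot cut were kept off or on doxycycline for 6 days, with 2 libraries each. All 3 sets are cultured cell lines, and the labels do not say whether the libraries of a group came from separate cultures, so p-values measure only the spread between these libraries.

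The p53 protein is a transcription factor that binds DNA as a tetramer, at paired half-sites in and near the genes it switches on. Its targets stop the cell cycle, start cell death, repair DNA, alter metabolism and feed back on p53 itself. Many genes that fall when p53 returns are thought to fall through p21, the product of Cdkn1a, which keeps the RB family and the DREAM repressor complex active at promoters of cell-cycle genes. PDAC cells commonly lose or mutate p53, and mouse tumours made by silencing it can be given it back by withdrawing the silencer.

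The off-doxycycline libraries held 10406820 to 12083414 counts and the on-doxycycline libraries 9393966 to 12983420, so the groups were read to similar depth. Levels are given as CPM, counts scaled to the library's total with edgeR's TMM factors, which lay between 0.9803 and 1.021. Log2 changes are off-doxycycline minus on-doxycycline, ± the standard error of edgeR's fit, with 3 libraries in each group. A gene was called, and is said to have risen or fallen, where edgeR's quasi-likelihood test gave a Benjamini-Hochberg adjusted p under 0.05 over all genes tested. The cells carried high levels of ductal keratins, with 10 ductal markers summing to 12364 to 13054 CPM off doxycycline and to 6853 to 7144 CPM on doxycycline. Of these markers Cldn4 was below 1 CPM in every library. Epcam had 0.929, 1.38 and 0.846 CPM off doxycycline and 0.560, 0.678 and 0.793 CPM on doxycycline. Both were below the filter and were not tested. Cdh1 had 461, 488 and 475 CPM off doxycycline and 528, 517 and 519.5 CPM on doxycycline. Markers of other cells were low: 13 of 14 fibroblast markers, all 20 acinar and endocrine markers, 9 of 12 endothelial markers and 16 of 20 immune markers were below 1 CPM in every library. Summed immune markers were 60.4 to 61.7 CPM off doxycycline and 33.3 to 35.6 CPM on doxycycline, led by Cd14 at up to 38.7 CPM. The other 3 immune markers above 1 CPM were Cd68, a macrophage marker that rose, with 6.45, 7.28 and 9.09 CPM off doxycycline, against 1.68, 2.82 and 2.19 CPM on doxycycline, and Csf1r and Ly6g, which did not pass the test. Csf1r, the receptor for macrophage growth factors, had 14.3, 10.4 and 14.5 CPM off doxycycline, against 10.6, 11.7 and 9.33 CPM on doxycycline, and passed without off-doxycycline replicate 2 (log2 change 0.46) or on-doxycycline replicate 2 (0.38). In all, 9 immune markers were at 0 in every library, with Cd3e, Adgre1, Itgax and Nkg7 among them. Below the filter, Ptprc had 0.196, 0.461 and 0.254 CPM off doxycycline, against 0.0799, 0.104 and 0.0755 CPM on doxycycline. Lyz2 had 0.293, 0.184 and 0.338 CPM off doxycycline and 0 CPM on doxycycline, while S100a9 and Cd79a overlapped between groups. Outside the marker list, the leukocyte receptor genes Lilr4b and Havcr2 rose, with log2 changes of 5.47 ± 0.22 and 5.37 ± 0.24. The endothelial markers above 1 CPM in any library were Cdh5 and Eng, which rose, and Flt1, which fell, with log2 changes of 3.32 ± 0.43, 1.58 ± 0.29 and -2.03 ± 0.19. In bulk RNA, a change in the share of cells that make a transcript and a change in the amount made per cell cannot be told apart.

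RNA of chromosome Y set the libraries apart in a way the labels do not give. Eif2s3y, a Y-linked gene of translation initiation, had 28.9, 34.6 and 26.5 CPM off doxycycline, against 12.4, 12.9 and 13.6 CPM on doxycycline. Kdm5d, Uty and Ddx3y, Y-linked genes of histone demethylation and RNA unwinding, rose together with it. All 4 were higher in every off-doxycycline library, with log2 changes of 1.21 ± 0.11 for Eif2s3y, 0.98 ± 0.13 for Kdm5d, 0.95 ± 0.17 for Uty and 1.08 ± 0.19 for Ddx3y, and no other gene of chromosome Y passed the test among 6 tested. Their summed level was 52.2 to 66.1 CPM off doxycycline and 27.4 to 29.6 CPM on doxycycline. It was 1.2 to 1.53 CPM with p53WT and 0.263 to 0.587 CPM with vector in KPnull cells, and in the 6-day cells, which are labelled KPsh too, it was 0 CPM off doxycycline and 0 to 0.118 CPM on doxycycline. The groups of the 10-day set thus differed in chromosome Y RNA beside Trp53, and its part in the results below was not tested.

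Trp53 itself, the gene the hairpin targets, is at chromosome 11, positions 69580359 to 69591872, plus strand, in mm10, the build of all coordinates here. It was measured at 259.5, 252 and 263 CPM off doxycycline, against 21.7, 21.1 and 20.3 CPM on doxycycline. All 3 off-doxycycline libraries were far above all 3 on-doxycycline libraries, in the direction the labels give, with a log2 change of 3.61 ± 0.07 (edgeR adjusted p = 3.87e-21). Wild-type p53 in KPnull cells gave a larger difference in Trp53 RNA, 649 and 686 CPM with p53WT, against 6.1 and 4.5 CPM with vector. The 6-day cells gave a smaller one, 97.2 and 86.8 CPM off doxycycline, against 19.3 and 20.2 CPM on doxycycline.

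Withdrawal of doxycycline for 10 days came with a change in most of the measured transcriptome. Of 13990 genes, 4624 rose (33.1%) and 4439 fell (31.7%), 9063 in all (64.8%). Many of these changes were small, with 4457 called genes (49.2%) under 1.5-fold, and the median absolute log2 change over all genes tested was 0.40. Among larger changes the rises outnumbered the falls. Tested against a change of 1.5-fold, 2858 genes passed (20.4%), 1858 higher (13.3%) and 1000 lower (7.15%). At a log2 change beyond 2 there were 483 called genes that rose and 100 that fell, and beyond 4 there were 84 that rose and 15 that fell. The libraries of the groups did not overlap for 9527 genes (68.1%). Protein-coding genes made up most of the called genes, with 4208 higher and 3964 lower of 11876 tested. Among 222 long intergenic noncoding RNAs, 69 rose and 43 fell. Counts of genes in a list are read against these shares, 33.1% higher and 31.7% lower over all genes tested.

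**Figure D1:**
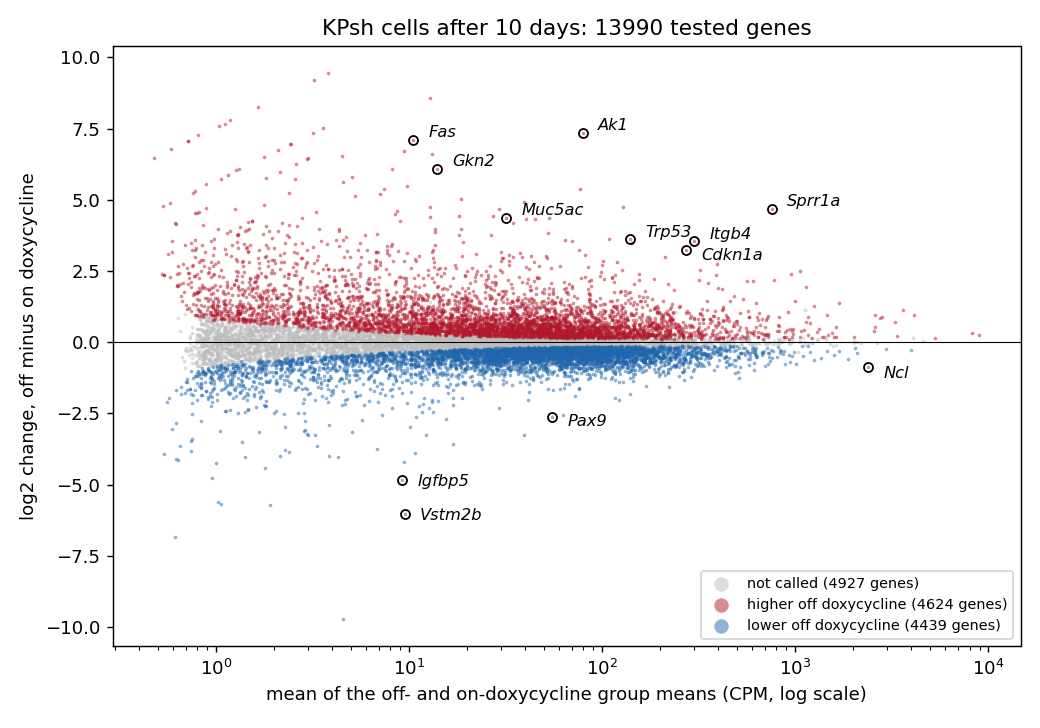
Log2 change of each of the 13990 tested genes, off-doxycycline minus on-doxycycline libraries (3 each), against its mean level in CPM on a log axis. Genes called higher or lower are coloured, and the circled genes carry their names; the spread of called genes reaches further up than down, with 84 risen and 15 fallen genes beyond a log2 change of 4.

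Sequences of 5 promoters are printed first because they belong to Trp53 and to p53 targets from different roles, and because each holds a p53 half-site, the 10-base unit of the p53 binding site. They come from RefSeq promoter windows on GRCm38.p6, whose coordinates are those of mm10, covering 250 bases before to 50 after each gene's start, and capitals mark the half-site on the gene's own strand. The Cdkn1a window belongs to a RefSeq start that lies upstream of the transcript the authors counted.
Cdkn1a, chr17:29090903-29090962, plus strand: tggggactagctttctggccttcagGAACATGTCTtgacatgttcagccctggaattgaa
Mdm2, chr10:117710910-117710969, minus strand: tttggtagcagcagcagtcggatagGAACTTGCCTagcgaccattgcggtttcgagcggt
Ccng1, chr11:40755437-40755496, minus strand: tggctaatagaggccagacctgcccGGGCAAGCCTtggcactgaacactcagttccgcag
Bax, chr7:45467065-45467124, minus strand: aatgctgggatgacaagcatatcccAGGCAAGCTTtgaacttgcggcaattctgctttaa
Trp53, chr11:69580259-69580318, plus strand: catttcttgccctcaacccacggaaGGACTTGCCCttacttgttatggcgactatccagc
Searched by name on both strands, the p53 half-site was found in the windows of 819 of 9883 tested genes that have one (8.29%). It was found for 336 of 3396 genes called higher (9.89%) and 249 of 3277 called lower (7.6%). Among genes higher by more than 1.5-fold it was present for 153 of 1366 (11.2%), and among those lower by more than 1.5-fold for 40 of 708 (5.65%). Of 60 members of the p53 target lists that rose, 16 held it (26.7%). A match is a string of letters in this window and was not tested as a binding site.

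Genes by which p53 controls its own level were higher more often than lower, by widely different amounts. Mdm2, at chromosome 10, positions 117688875 to 117710758, minus strand, makes the ubiquitin ligase that marks p53 for destruction. Mdm2 was at 697, 680.0 and 674 CPM off doxycycline, against 108, 98.7 and 101 CPM on doxycycline, with no overlap and a log2 change of 2.74 ± 0.06 (edgeR adjusted p = 4.11e-20). Ccng1, cyclin G1, reached 1338, 1342 and 1166 CPM off doxycycline, against 283, 269.7 and 282 CPM on doxycycline. Trp53inp1, which assists p53 in stress and autophagy, had 115, 107 and 81.5 CPM off doxycycline, against 3.8, 4.54 and 6.08 CPM on doxycycline, the widest change in this group at a log2 change of 4.37 ± 0.19. The off-doxycycline libraries of Trp53inp1 were spread more widely than those of the other members named here, yet all lay above the on-doxycycline ones. Usp7, the deubiquitinase that acts on both MDM2 and p53, fell by 0.79 on the log2 scale, with 165, 188 and 164 CPM off doxycycline, against 305, 290.0 and 299 CPM on doxycycline. Mdm4, the partner of MDM2, did not pass the test, with 103, 110.3 and 99.9 CPM off doxycycline, against 94.9, 93.5 and 101 CPM on doxycycline. Of 11 tested members of this list, 6 rose (54.5%), 1 fell and 4 did not pass, and Trp63, Trp73 and Ubd were below the filter.

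Cell-cycle arrest targets rose in 12 of 14 tested cases (85.7%), with a median log2 change of 1.42. Cdkn1a, at chromosome 17, positions 29093781 to 29100727, plus strand, encodes p21, the inhibitor of cyclin-dependent kinases. Cdkn1a stood at 504, 454 and 510.2 CPM off doxycycline, against 53.1, 53.4 and 50.6 CPM on doxycycline. The groups were far apart, with a log2 change of 3.22 ± 0.06 (edgeR adjusted p = 1.46e-20). Zfp365, whose human counterpart guards against replication stress, had 58.6, 54.6 and 55.3 CPM off doxycycline, against 2.64, 2.24 and 1.74 CPM on doxycycline, a log2 change of 4.66 ± 0.13. Btg2, an antiproliferative gene that acts through mRNA deadenylation, was at 137, 124 and 126 CPM off doxycycline, against 12.4, 9.08 and 10.7 CPM on doxycycline. Plk2 and Zmat3, a kinase and an RNA-binding protein, rose by log2 changes of 2.23 ± 0.06 and 1.81 ± 0.06. Both Gadd45g and Gadd45b, stress sensors of one family, rose too, with log2 changes of 2.02 ± 0.11 and 1.48 ± 0.11. Cdkn1b, the p21 relative p27, went the other way, with 40.4, 39.1 and 28.7 CPM off doxycycline, against 68.4, 78.9 and 76.8 CPM on doxycycline. All 3 off-doxycycline libraries of Cdkn1b were below all 3 on-doxycycline libraries, and the log2 change was -1.05 ± 0.10. Plk3 did not pass, with 15, 14.1 and 14.1 CPM off doxycycline, against 13.8, 15.3 and 13.7 CPM on doxycycline.

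**Figure D2:**
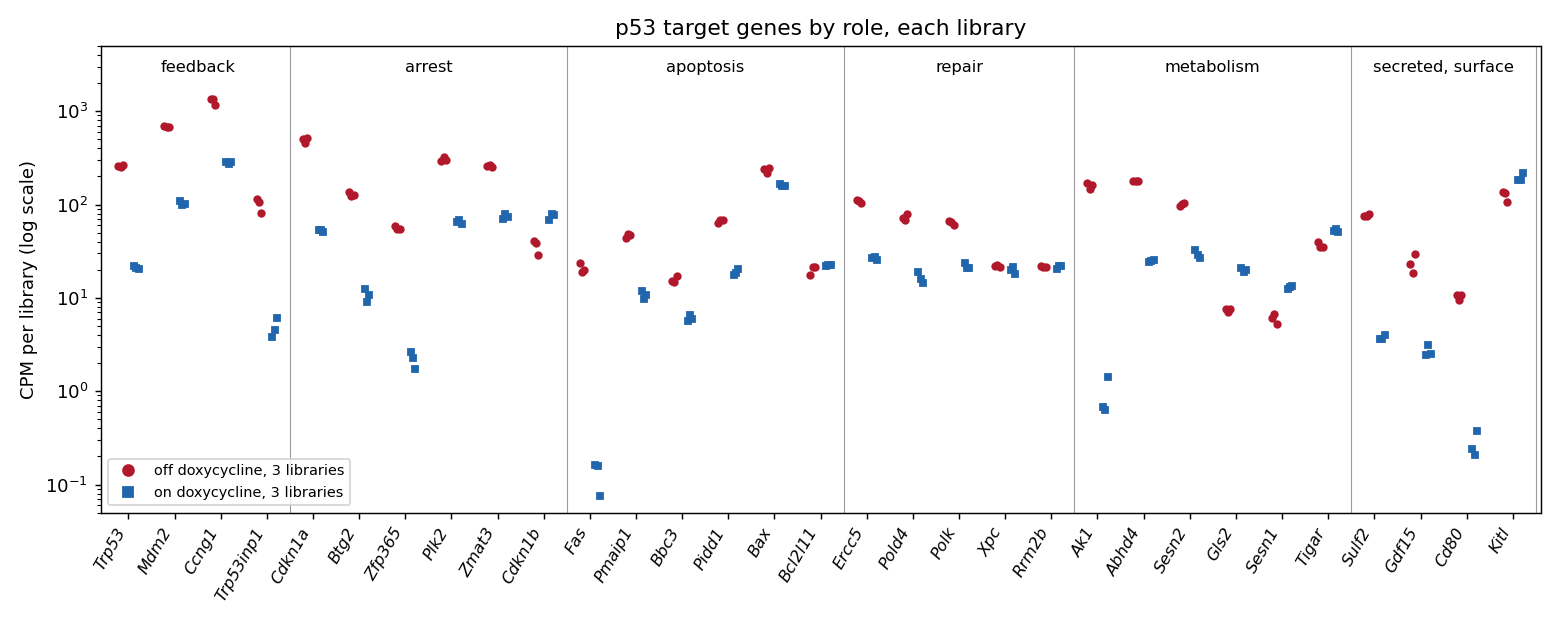
Level in CPM, on a log axis, of p53 target genes grouped by role, with 1 point for each of the 3 off-doxycycline and 3 on-doxycycline libraries. Ak1, Fas and Cd80 show the widest gaps between groups, while Xpc and Rrm2b overlap. Bcl2l11 lies slightly lower in every off-doxycycline library but did not pass the test. Gls2, Sesn1, Tigar, Cdkn1b and Kitl lie lower off doxycycline.

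Apoptosis targets rose in 14 of 17 tested cases (82.4%), with a median log2 change of 0.76. Fas, at chromosome 19, positions 34290666 to 34327772, plus strand, encodes a death receptor of the cell surface and was nearly absent on doxycycline. Fas was at 23.7, 19 and 20 CPM off doxycycline, against 0.16, 0.157 and 0.0755 CPM on doxycycline, a log2 change of 7.10 ± 0.27. Pmaip1, the BH3-only protein NOXA, had 43.9, 47.9 and 46.7 CPM off doxycycline, against 11.9, 9.66 and 10.6 CPM on doxycycline. Bbc3, the BH3-only protein PUMA, had 15.3, 14.9 and 17 CPM off doxycycline, against 5.64, 6.52 and 5.89 CPM on doxycycline. Their groups did not overlap, with log2 changes of 2.09 ± 0.10 for Pmaip1 and 1.39 ± 0.13 for Bbc3. Pidd1, a scaffold for caspase-2, rose by a log2 change of 1.82 ± 0.08, and Tnfrsf10b, the mouse TRAIL receptor, by 1.10 ± 0.06. Bax, the pore-forming effector, rose less, by 0.57 ± 0.06, and 12.2% of its exon bases are shared with another gene. Bcl2l11, the BH3-only protein BIM, did not pass, with 17.7, 21.6 and 21.4 CPM off doxycycline, against 21.8, 22.3 and 22.6 CPM on doxycycline.

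Repair targets as a list stayed close to the shares over all genes, 33.1% higher and 31.7% lower. Of 12 tested, 4 rose and 4 fell (33.3% each), with a median log2 change of 0.09. Ercc5, the nuclease XPG of nucleotide excision repair, was at 113, 109.6 and 104 CPM off doxycycline, against 26.6, 27.4 and 25.5 CPM on doxycycline. Polk, a translesion polymerase, rose by a log2 change of 1.55 ± 0.08, and Pold4, the small subunit of polymerase delta, by 2.16 ± 0.10, with 24.6% of its exon bases shared with another gene. Rev3l, the catalytic subunit of another translesion polymerase, had 26.6, 31.8 and 26.2 CPM off doxycycline, against 46.2, 48.8 and 51 CPM on doxycycline, and fell. Xpc, which recognises damage in nucleotide excision repair, did not pass, at 21.9, 22.5 and 21.4 CPM off doxycycline, against 19.8, 21.5 and 18 CPM on doxycycline. Rrm2b, the p53-inducible subunit of ribonucleotide reductase, did not pass either, at 22.1, 21.5 and 21.5 CPM off doxycycline, against 20.3, 22 and 22.2 CPM on doxycycline.

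Metabolic targets held both the widest rise and several falls, with 16 higher (64%) and 5 lower (20%) of 25 tested. Ak1, adenylate kinase 1, which lies at chromosome 2, positions 32629504 to 32635052, plus strand, was at 168, 145 and 162 CPM off doxycycline, against 0.68, 0.626 and 1.43 CPM on doxycycline. Its log2 change was 7.35 ± 0.14 (edgeR adjusted p = 2.06e-20), and every off-doxycycline library was far above every on-doxycycline one. Abhd4, a lipase that acts on N-acyl phosphatidylethanolamines, was at 177, 179 and 178 CPM off doxycycline, against 24.1, 24.8 and 25.2 CPM on doxycycline. Ephx1, microsomal epoxide hydrolase, rose by 2.83 ± 0.06, and Slc2a9, a urate and sugar carrier, by 3.38 ± 0.17, both on the log2 scale. Sesn2, a leucine sensor upstream of mTORC1, had 96.9, 100.1 and 104 CPM off doxycycline, against 32.9, 28.8 and 26.9 CPM on doxycycline, and Sesn3 of the same family rose by a log2 change of 1.54 ± 0.09. Sesn1, the third member, fell, with 6.11, 6.68 and 5.28 CPM off doxycycline, against 12.3, 13 and 13.4 CPM on doxycycline. Gls2, the liver-type glutaminase, fell as well, with 7.63, 7.05 and 7.65 CPM off doxycycline, against 20.8, 19.1 and 19.8 CPM on doxycycline. Tigar, the fructose bisphosphatase that lowers glycolysis, had 39.2, 34.8 and 35 CPM off doxycycline, against 51.8, 54.9 and 50.9 CPM on doxycycline, and fell by 0.53 on the log2 scale. Pank1, a pantothenate kinase of coenzyme A synthesis, and Prkab1, a subunit of AMPK, fell, with log2 changes of -1.38 ± 0.11 and -0.64 ± 0.07. Hmox1 did not pass, with a log2 change of -0.03 ± 0.07.

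Secreted and surface targets rose in 18 of 23 cases (78.3%), and the other 5 fell. Sulf2, which trims heparan sulfate outside the cell, was at 76, 75.6 and 79.1 CPM off doxycycline, against 3.64, 3.6 and 3.96 CPM on doxycycline. Gdf15, a stress cytokine, had 23.1, 18.6 and 29.7 CPM off doxycycline, against 2.44, 3.13 and 2.49 CPM on doxycycline. Cd80, a ligand for T-cell receptors of costimulation, reached 10.6, 9.49 and 10.7 CPM off doxycycline, against 0.24, 0.209 and 0.378 CPM on doxycycline. None of these groups overlapped, and the log2 changes were 4.34 ± 0.10 for Sulf2, 3.16 ± 0.19 for Gdf15 and 5.13 ± 0.27 for Cd80. Thbs1, an antiangiogenic matrix protein, rose by a log2 change of 2.71 ± 0.08 and Lif, a cytokine of the interleukin 6 family, by 1.48 ± 0.08. Ereg, an EGF receptor ligand, fell, with 59.3, 58.9 and 52.8 CPM off doxycycline, against 86.6, 88.1 and 95.5 CPM on doxycycline, while its relatives Hbegf and Tgfa rose by 0.64 ± 0.06 and 0.35 ± 0.07.

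Beyond the p53 lists, the largest rises reached genes that were almost silent on doxycycline. Ms4a10, a membrane protein gene at chromosome 19, positions 10962293 to 10974670, minus strand, had 5.52, 7.28 and 6.47 CPM off doxycycline and a count of 0 in all 3 on-doxycycline libraries. With 212 counts off doxycycline and a floor of 3 counts over the on-doxycycline group, it was at least 75.9-fold higher. The uncharacterised gene 1700007K13Rik, also at 0 on doxycycline, had 6.65, 7.51 and 8.62 CPM off doxycycline and was at least 90-fold higher. Ano3, of the anoctamin family of channels and scramblases, lies at chromosome 2, positions 110655201 to 110950923, minus strand. It had 847 counts off doxycycline and 2 on doxycycline, a ratio of 455 with a 95% interval of 125 to 3761 that covers counting error only. Prss12, a secreted serine protease at chromosome 3, positions 123446913 to 123506597, plus strand, had 17.3, 18.7 and 20.3 CPM off doxycycline, against 0.16, 0.104 and 0.227 CPM on doxycycline. Sytl1, which links RAB27 to secretory vesicles, had 26.2, 25.7 and 25.8 CPM off doxycycline, against 0.2, 0.209 and 0.302 CPM on doxycycline. Both groups of both genes were well apart, with log2 changes of 6.70 ± 0.25 for Prss12 and 6.61 ± 0.21 for Sytl1. Atg9b, a lipid scramblase of autophagy, was at 143, 149 and 158 CPM off doxycycline, against 3.6, 3.91 and 3.21 CPM on doxycycline. The other named rises included Thbd, the anticoagulant receptor thrombomodulin (5.03 ± 0.15), Cryab, a small heat shock protein (4.91 ± 0.12), and Mmp10, stromelysin 2 (5.80 ± 0.31), all on the log2 scale.

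Gli2 was the one gene with at least 5 CPM on average in one group that was at 0 in every off-doxycycline library. Gli2, the Hedgehog pathway transcription factor, lies at chromosome 1, positions 118834132 to 119053619, minus strand. It had 0 counts off doxycycline and 9.03, 8.82 and 9.55 CPM, or 324 counts, on doxycycline, at least 101-fold lower. Ptch1, the Hedgehog receptor and itself a target of GLI proteins, was at 20.8, 23.1 and 23.2 CPM off doxycycline, against 40.9, 44.3 and 40.2 CPM on doxycycline. Gli3, a relative of Gli2, had 3.96, 4.24 and 4.06 CPM off doxycycline, against 5.6, 6.05 and 8.35 CPM on doxycycline, and both of these genes fell. In the other sets Gli2 was near or at 0 in all libraries, with 0 and 0.0683 CPM with p53WT, against 0.102 and 0.131 CPM with vector, and 0 CPM in all 4 libraries of the 6-day cells.

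Other large falls came in genes of varied roles. Vstm2b, an immunoglobulin-domain membrane protein gene at chromosome 7, positions 40898328 to 40930594, plus strand, had 0.244, 0.369 and 0.127 CPM off doxycycline, against 18.5, 20.8 and 17 CPM on doxycycline, a log2 change of -6.04 ± 0.24. Igfbp5, an insulin-like growth factor binding protein at chromosome 1, positions 72857932 to 72874884, minus strand, had 0.587, 0.645 and 0.592 CPM off doxycycline, against 16.5, 17.2 and 19.7 CPM on doxycycline. Peg10, an imprinted gene derived from a retrotransposon, had 0.978, 1.01 and 0.846 CPM off doxycycline, against 13.4, 11.5 and 13.5 CPM on doxycycline. Each of these genes was near the limit of detection off doxycycline and above 10 CPM in every on-doxycycline library. Atp7b, the copper exporter mutated in Wilson disease, had 1.37, 1.34 and 0.211 CPM off doxycycline, against 17.4, 17.2 and 19.1 CPM on doxycycline. Ffar4, a receptor for long-chain fatty acids, was at 6.65, 6.64 and 9.01 CPM off doxycycline, against 70.1, 74.2 and 71 CPM on doxycycline. Pax9, a transcription factor of the foregut, was at 17.4, 13 and 15.6 CPM off doxycycline, against 93.5, 95.6 and 95.6 CPM on doxycycline, a log2 change of -2.63 ± 0.09.

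Per length, in TPM, where counts are divided by gene length and scaled to a fixed sum, the 12 largest gains included genes of several roles. S100a6, a calcium-binding protein, had 15571 ± 1536 TPM off doxycycline and 8698 ± 278 TPM on doxycycline (mean ± SD, n = 3 each). Sprr1a, a precursor of the cornified cell envelope, had 3769.5 ± 248 TPM off doxycycline and 162 ± 14.8 TPM on doxycycline, and its log2 change of 4.68 ± 0.08 was the widest among the 12 largest gains. Clu, the extracellular chaperone clusterin, had 5754 ± 196 TPM off doxycycline and 2863 ± 40.7 TPM on doxycycline. The actin-sequestering peptide gene Tmsb4x had 3975 ± 401 TPM off doxycycline and 1578 ± 5.11 TPM on doxycycline. Msln, mesothelin, a surface antigen of pancreatic cancer, had 1755 ± 40.9 TPM off doxycycline and 339 ± 16 TPM on doxycycline. The keratins Krt18, Krt19 and Krt8 were also among the 12 largest gains, with log2 changes of 0.96 ± 0.05, 0.86 ± 0.05 and 0.70 ± 0.05. Vim, vimentin, had 3498 ± 128 TPM off doxycycline and 2089 ± 69.3 TPM on doxycycline, so keratins and vimentin rose together. The 12 largest losses were likewise mixed, led by the ferritin light chain gene Ftl1, which shares exon bases with a neighbour. Ncl, nucleolin, had 433 ± 33.2 TPM off doxycycline and 860.4 ± 42 TPM on doxycycline. Npm1, nucleophosmin, had 1944 ± 161 TPM off doxycycline and 3195 ± 271 TPM on doxycycline. Hspd1, the mitochondrial chaperonin HSP60, had 652 ± 26.2 TPM off doxycycline and 1202 ± 33.3 TPM on doxycycline. Lgals4, a gut-type galectin, had 1092 ± 75.7 TPM off doxycycline and 1959.8 ± 40.3 TPM on doxycycline. Mitochondrial mt-Co1 ranked among the gains but its off-doxycycline libraries were spread widely, from 8091 to 10723 CPM, against 6935 to 7839.7 CPM on doxycycline. All reads on chromosome M together were 1.949% to 2.414% of counts off doxycycline and 1.8% to 1.98% on doxycycline.

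**Figure D3:**
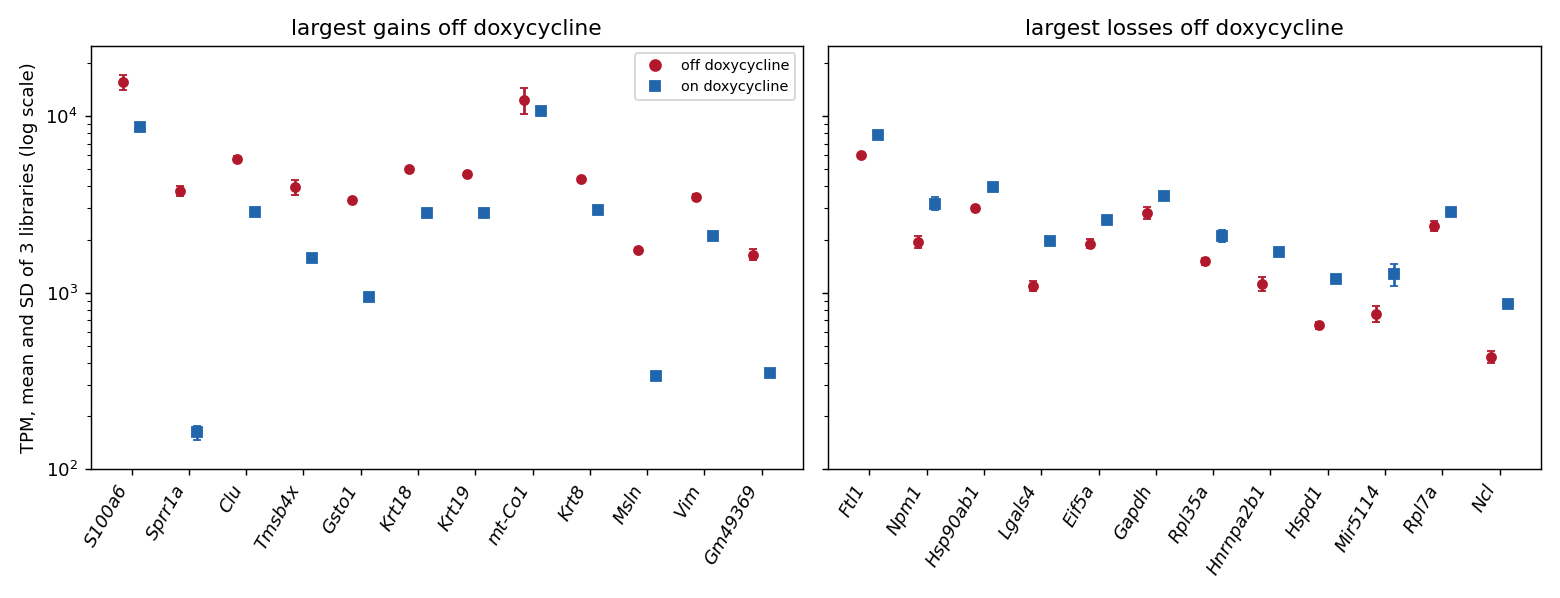
Mean level in TPM, on a log axis, with SD (3 libraries per group), of the 12 genes that gained and the 12 that lost the most TPM among called genes, off doxycycline and on doxycycline. Sprr1a shows the widest gain and Ncl and Hspd1 the widest losses, and Gm49369, Mir5114 and Ftl1 share exon bases with neighbouring genes, so their values are not theirs alone.

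Cell-cycle activators fell, and the members of the list that rose were few. Of 30 tested activators and E2F regulators, 18 fell (60%) and 3 rose (10%), with a median log2 change of -0.52. The largest fall was in Mybl2, the B-MYB transcription factor of late cell-cycle genes, which had 40.3, 41.5 and 44.5 CPM off doxycycline, against 89.4, 103 and 94.4 CPM on doxycycline. Cdc25b, a phosphatase that activates CDK1, had 45.9, 45 and 50 CPM off doxycycline, against 97.1, 99.5 and 95.4 CPM on doxycycline. Ccna2, cyclin A2, had 183, 181 and 169.5 CPM off doxycycline, against 367, 342 and 361 CPM on doxycycline. The 3 genes fell, with log2 changes of -1.18 ± 0.07, -1.05 ± 0.07 and -1.01 ± 0.06, with no overlap between groups, and 12.5% of the exon bases of Ccna2 are shared with another gene. Ccnd1, cyclin D1, which drives entry into the cycle, rose, with 2447, 2440.3 and 2408 CPM off doxycycline, against 951, 942 and 902 CPM on doxycycline. All 3 off-doxycycline libraries of Ccnd1 were above all 3 on-doxycycline libraries, and 23.4% of its exon bases are shared with a neighbour. In the 6-day set the 29 members tested had a median log2 change of -2.82, and in KPnull cells the median was -0.95.

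The CHR element, TTTGAA, by which the DREAM and MMB complexes bind late cell-cycle promoters, is shown in the windows of 2 activators that fell, with capitals marking it and, for E2f8, its reverse complement on the gene's strand. The E2f2 window belongs to a RefSeq start inside the counted gene and the E2f8 window to one upstream of it.
E2f2, chr4:136180726-136180781, plus strand: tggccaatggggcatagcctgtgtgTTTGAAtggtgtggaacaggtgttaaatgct
E2f8, chr7:48881597-48881641, minus strand: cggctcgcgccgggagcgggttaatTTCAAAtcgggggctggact
Searched on both strands, TTTGAA was in the windows of 1422 of 9883 tested genes (14.4%). It was found for 542 of 3277 genes called lower (16.5%) and 448 of 3396 called higher (13.2%). Beyond 1.5-fold it was present for 132 of 708 lower genes (18.6%) and 185 of 1366 higher genes (13.5%). Of the 14 activators with a window that fell, 7 held it (50%), and the share among activators that did not fall was not counted. E2f2 and E2f8, members of the E2F family, fell, with log2 changes of -0.99 ± 0.09 and -0.94 ± 0.08, and 11.2% of the exon bases of E2f8 are shared with another gene.

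The RB and DREAM group itself moved both ways. Lin54, the DREAM subunit that binds the CHR element, had 24.9, 25.3 and 24.5 CPM off doxycycline, against 55.8, 53.6 and 62.5 CPM on doxycycline, and Lin9 and E2f4 of the same complex fell, with log2 changes of -0.94 ± 0.09 and -0.74 ± 0.06. Rbl2, the pocket protein p130, rose by 0.69 ± 0.09 and Rb1 by 0.56 ± 0.11, with 21% and 14.9% of their exon bases shared with other genes. Among the other CDK inhibitors, Cdkn2b, the p15 inhibitor of CDK4 and CDK6, was at 79.7, 79.9 and 88.7 CPM off doxycycline, against 35.3, 32.8 and 25.1 CPM on doxycycline, and rose. Cdkn2c, the p18 inhibitor, had 10.8, 13.6 and 14.2 CPM off doxycycline, against 22, 21.9 and 22.2 CPM on doxycycline, and fell. In all, 2 CDK inhibitors rose (28.6%) and 4 fell (57.1%) of 7 tested, and Cdkn1c was below the filter. The count of falls was 2 without off-doxycycline replicate 2 and 2 without on-doxycycline replicate 2.

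Genes commonly used as marks of senescence changed in several directions. Lmnb1, lamin B1, a loss of which marks senescent cells, had 122, 122 and 123 CPM off doxycycline, against 169.5, 167 and 167 CPM on doxycycline, a log2 change of -0.45 ± 0.05. Hmgb2, a chromatin protein, had 137, 128 and 132 CPM off doxycycline, against 300.4, 284 and 289.8 CPM on doxycycline. Glb1, the lysosomal beta-galactosidase, rose by a log2 change of 0.82 ± 0.07, with 58.5, 56.1 and 58.7 CPM off doxycycline, against 32.1, 34 and 32.1 CPM on doxycycline. Of 27 secreted factors associated with senescence, 23 rose (85.2%) and 3 fell, with a median log2 change of 1.24. The other 14 members, of 41, were below the filter, with the cytokines Il6, Il1a, Il1b, Tnf and Cxcl10 among them. Gdf15 of this list also stands in a p53 list. Igfbp3 and Mmp14 rose by log2 changes of 1.24 ± 0.06 and 2.10 ± 0.08. Cxcl5, a neutrophil chemokine, fell, with 3.13, 2.77 and 3.13 CPM off doxycycline, against 18.7, 17.8 and 19.6 CPM on doxycycline, as did Igfbp5, given above. Histone modifiers and DNA methylation genes were lower for 22 of 38 tested (57.9%) and higher for 3, and none was higher by more than 1.5-fold. Kmt2c, a histone H3 lysine 4 methyltransferase, led them with 17, 26.1 and 24 CPM off doxycycline, against 57.5, 61.1 and 66.1 CPM on doxycycline.

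**Figure D4:**
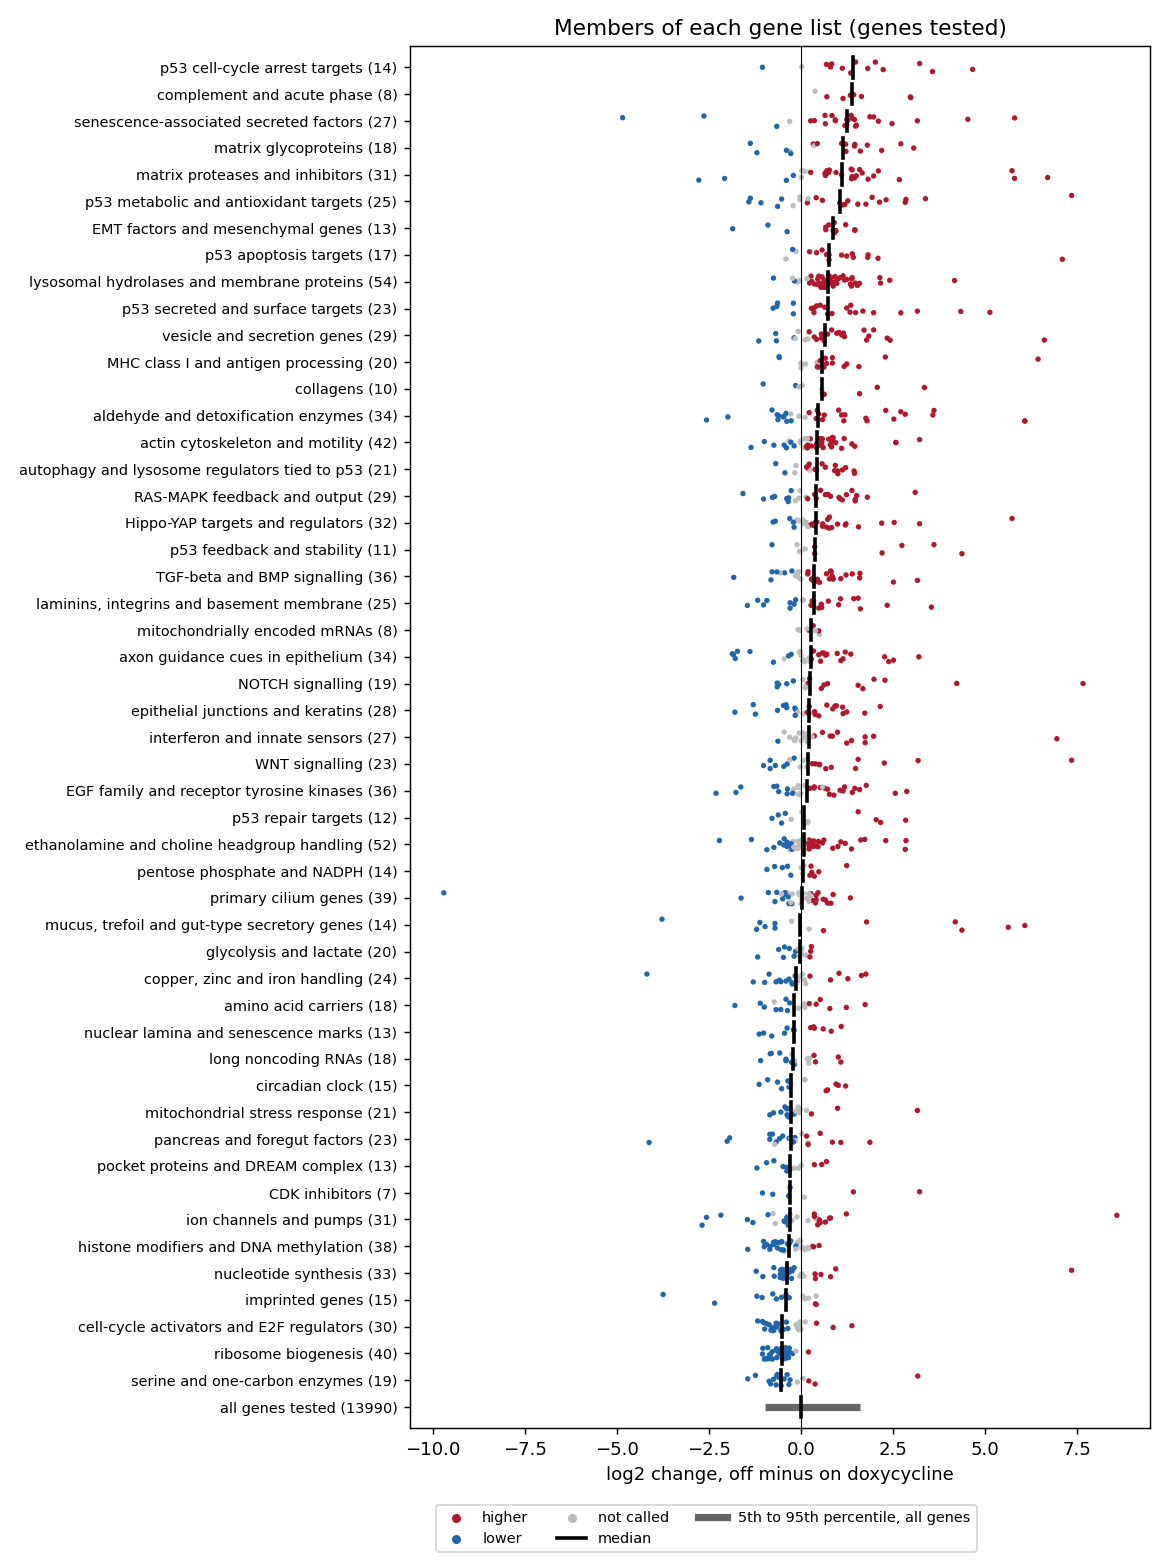
Log2 change of the tested members of each gene list, 1 point per gene, with the list's median as a bar and the range from the 5th to the 95th percentile of all 13990 genes for comparison. Lysosomal and p53 arrest lists lie mostly above 0 and ribosome biogenesis lies almost wholly below it.

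Ribosome biogenesis fell almost throughout, by small amounts. Of 40 tested members, 38 fell (95%) and 1 rose (0 without off-doxycycline or on-doxycycline replicate 3), with a median log2 change of -0.53 and a range of -1.05 to 0.20. Dkc1, the pseudouridine synthase dyskerin, had 121, 133 and 125 CPM off doxycycline, against 272, 257 and 256 CPM on doxycycline. Ddx21, a nucleolar helicase, had 312, 349.8 and 332 CPM off doxycycline, against 677, 687 and 687 CPM on doxycycline. Polr1b, a core subunit of RNA polymerase I, had 79.2, 87.3 and 79.4 CPM off doxycycline, against 153, 164 and 173 CPM on doxycycline. In each, the lowest on-doxycycline library was above the highest off-doxycycline library. Genes of ribosomal proteins did not follow, with 19 of 80 higher, 4 lower and a median of 0.07. Of 33 genes of nucleotide synthesis 23 fell (69.7%) and 6 rose. Umps, which completes the making of uridine monophosphate, had 171, 173 and 178 CPM off doxycycline, against 408, 404 and 402 CPM on doxycycline, and Pfas, of purine synthesis, fell, with a log2 change of -1.04 ± 0.06. Hprt, of purine salvage, rose instead, with 397, 393 and 357 CPM off doxycycline, against 228, 212 and 220.1 CPM on doxycycline. Serine and one-carbon enzymes fell in 14 of 19 cases (73.7%). Mthfd2, the mitochondrial folate enzyme, had 54.2, 47.6 and 53.8 CPM off doxycycline, against 119.9, 121 and 125 CPM on doxycycline, and Psat1, of serine synthesis, fell, with a log2 change of -0.87 ± 0.05. Aldh1l1, which oxidises formyl-tetrahydrofolate, rose, with 11.2, 12.2 and 14.1 CPM off doxycycline, against 1.12, 1.57 and 1.47 CPM on doxycycline. Slc7a5, a leucine carrier, and Slc7a11, the cystine carrier, fell, with log2 changes of -1.11 ± 0.06 and -1.80 ± 0.07.

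Autophagy and lysosome genes mostly rose, with the sequences shown because 3 lysosomal genes that rose hold the CLEAR element, TCACGTGA, at which TFEB and TFE3 bind. It is palindromic and contains the E-box CACGTG. The Cln3 and Ctsd windows belong to RefSeq starts inside the counted genes. For Ctsd the printed stretch, with its element, lies inside the counted gene too.
Ctsd, chr7:142387894-142387951, minus strand: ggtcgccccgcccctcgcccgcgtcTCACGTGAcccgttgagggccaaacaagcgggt
Mcoln1, chr8:3500448-3500505, plus strand: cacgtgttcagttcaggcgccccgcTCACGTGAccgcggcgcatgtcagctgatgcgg
Cln3, chr7:126583326-126583383, minus strand: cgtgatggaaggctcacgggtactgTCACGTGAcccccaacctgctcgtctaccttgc
The element was in the windows of 220 of 9883 tested genes (2.23%), of 78 of 3396 called higher (2.3%) and of 7 of 38 risen members of the lysosomal list (18.4%). Of 54 tested lysosomal hydrolases and membrane proteins, 47 rose (87%) and 2 fell, with a median log2 change of 0.74. Ctsd, the aspartic protease cathepsin D, had 1567, 1559 and 1686 CPM off doxycycline, against 316, 297 and 294 CPM on doxycycline, with 34.4% of its exon bases shared with another gene. Ctsl, cathepsin L, was at 916, 922 and 921 CPM off doxycycline, against 213, 202 and 201 CPM on doxycycline. Gm2a, the activator of ganglioside GM2 breakdown, was at 140.3, 139 and 139 CPM off doxycycline, against 31.8, 32.7 and 30.7 CPM on doxycycline. None of these overlapped between groups. Mcoln1, a lysosomal calcium channel, and Cln3, a lysosomal membrane protein lost in Batten disease, rose by 0.91 ± 0.09 and 0.63 ± 0.09 on the log2 scale. Subunits of the vacuolar proton pump rose in 16 of 17 cases (94.1%), with a median log2 change of 0.64. Autophagy regulators rose in 16 of 21 cases (76.2%). Sqstm1, the cargo receptor p62, rose by a log2 change of 1.12 ± 0.06, with 17.3% of its exon bases shared with another gene. Gabarap, of the ATG8 family, had 255, 255 and 278 CPM off doxycycline, against 119, 109 and 112 CPM on doxycycline, and Map1lc3b, LC3B, rose by 0.99 ± 0.07.

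Headgroup handling, the subject of the series, changed in both directions. Of 52 tested genes of ethanolamine and choline handling, 23 rose (44.2%) and 13 fell (25%), with a median log2 change of 0.08. Gdpd5, which releases choline from glycerophosphocholine, had 11.9, 11.8 and 13.8 CPM off doxycycline, against 2.08, 1.51 and 1.55 CPM on doxycycline. Abhd12, a lysophosphatidylserine lipase, had 202, 189 and 209.8 CPM off doxycycline, against 74.7, 83.2 and 74.8 CPM on doxycycline. Slc44a2, a choline carrier of the plasma membrane and mitochondria, rose by a log2 change of 1.08 ± 0.06. Mfsd2a, which imports lysophosphatidylcholine, fell, with 4.16, 3.13 and 4.57 CPM off doxycycline, against 17.9, 22 and 16.1 CPM on doxycycline.

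Detoxification enzymes rose in 20 of 34 cases (58.8%) and fell in 11. Aldh1a1, a retinaldehyde dehydrogenase, had 211, 195 and 195 CPM off doxycycline, against 16.6, 15.1 and 17.3 CPM on doxycycline, a log2 change of 3.61 ± 0.07. Aldh3a1, which clears fatty aldehydes, had 190.4, 186 and 186 CPM off doxycycline, against 39.1, 37.1 and 37.6 CPM on doxycycline. Gsto1, a glutathione transferase of the omega class, rose to 1816, 1761 and 1839 CPM off doxycycline, against 492, 476 and 438 CPM on doxycycline. Akr1c19, an aldo-keto reductase, fell, with 19.3, 16.3 and 18.6 CPM off doxycycline, against 107, 104 and 111 CPM on doxycycline.

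Epithelial genes moved both ways, and mesenchymal genes rose more often than they fell. Krt7, a keratin of ductal cells, had 975, 943 and 1048 CPM off doxycycline, against 228, 235 and 205 CPM on doxycycline. Jup, plakoglobin, of junctions, had 336, 334 and 385 CPM off doxycycline, against 149, 151 and 148 CPM on doxycycline. Cldn6, a claudin, rose by a log2 change of 1.73 ± 0.06. Of 28 epithelial genes 15 rose (53.6%) and 10 fell (35.7%). Among 13 tested EMT and mesenchymal genes 10 rose (76.9%) and 3 fell, and 9 others of the list were below the filter. Fibroblast markers stood beside them at summed levels of 2.17 to 3.42 CPM off doxycycline and 1.83 to 3.92 CPM on doxycycline, with 7 of 14 at 0 in every library. Fn1, fibronectin, had 203, 279 and 249 CPM off doxycycline, against 84.7, 90.3 and 90.4 CPM on doxycycline. Sparc, a collagen-binding glycoprotein, had 67, 57.2 and 59.4 CPM off doxycycline, against 22.2, 23.6 and 21.1 CPM on doxycycline. Twist2, a transcription factor of mesenchyme, fell, with 3.67, 2.63 and 3.26 CPM off doxycycline, against 11.1, 14.1 and 10.2 CPM on doxycycline, and 46.5% of its exon bases are shared with another gene. Of 23 foregut and pancreas factors 12 fell (52.2%) and 6 rose. Foxa1, a pioneer factor of endoderm, rose, with 16.5, 15.9 and 14.6 CPM off doxycycline, against 4.52, 3.44 and 4.57 CPM on doxycycline. Onecut2, a homeobox factor, fell, with 51, 50.4 and 43 CPM off doxycycline, against 164, 182 and 206 CPM on doxycycline. Sox4 and Sox9 rose by log2 changes of 1.08 ± 0.07 and 0.85 ± 0.11.

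Gastric-type secretory genes were among the widest changes. Muc5ac, the gel-forming mucin of the stomach surface, lies at chromosome 7, positions 141788972 to 141819231, plus strand. Muc5ac had 52, 63.9 and 66.8 CPM off doxycycline, against 3.68, 3.03 and 2.15 CPM on doxycycline, a log2 change of 4.37 ± 0.15. Gkn2, gastrokine 2, at chromosome 6, positions 87373357 to 87379497, plus strand, had 28.1, 26.6 and 28.1 CPM off doxycycline, against 0.44, 0.418 and 0.302 CPM on doxycycline. Ctse, the gastric protease cathepsin E, had 59.3, 68.5 and 68.7 CPM off doxycycline, against 3.52, 2.87 and 4.12 CPM on doxycycline. All 3 genes were low in every on-doxycycline library, with no overlap between groups. Anxa10, an annexin of gastric epithelium, rose by a log2 change of 1.78 ± 0.08. The membrane mucin Muc4 fell, with 21.2, 17.6 and 19.6 CPM off doxycycline, against 44.1, 40 and 42.3 CPM on doxycycline, and so did Vsig1, a junction protein of gastric epithelium, with a log2 change of -1.21 ± 0.06. Within the list of 14 tested members 6 rose and 6 fell (42.9% each), so the list as a whole did not lean one way. Beyond 1.5-fold 5 rose and 5 fell, and log2 changes of the tested members ranged from -3.78 to 6.08.

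Matrix, adhesion and protease genes rose more often than they fell. Itgb4, the integrin subunit of hemidesmosomes, lies at chromosome 11, positions 115974709 to 116008412, plus strand. It had 535, 560.0 and 559.9 CPM off doxycycline, against 45.6, 49.1 and 47.7 CPM on doxycycline, a log2 change of 3.54 ± 0.06 (edgeR adjusted p = 2.09e-21). Itgb6, which activates latent TGF-beta, had 32.2, 37.1 and 27.9 CPM off doxycycline, against 6.96, 5.58 and 6.38 CPM on doxycycline. Itga7, a laminin receptor subunit, fell, with 17.3, 15.5 and 16 CPM off doxycycline, against 43.1, 46.6 and 45.2 CPM on doxycycline. In the list of laminins, integrins and basement membrane, 15 of 25 rose (60%) and 8 fell. Matrix glycoproteins rose in 12 of 18 cases (66.7%), led by Ecm1, which had 140.0, 149 and 149 CPM off doxycycline, against 16.6, 19.1 and 17 CPM on doxycycline. Fbln2 and Mfge8, secreted matrix proteins, rose by log2 changes of 1.61 ± 0.06 and 1.80 ± 0.06. Matrix proteases and their inhibitors rose in 24 of 31 cases (77.4%) and fell in 4. Mmp15, a membrane-type metalloprotease, had 43, 46 and 46.9 CPM off doxycycline, against 6.76, 7.46 and 7.1 CPM on doxycycline. Actin and motility genes rose in 28 of 42 cases (66.7%), among them Gsn, the filament-severing protein gelsolin, with 145, 131 and 134 CPM off doxycycline, against 16.6, 14.3 and 13 CPM on doxycycline. Genes of vesicles and secretion rose in 21 of 29 cases (72.4%) and fell in 4.

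Signalling pathways changed in their ligands, receptors and targets. Among WNT genes 11 of 23 rose (47.8%) and 7 fell. The ligand Wnt7a had 77, 76.4 and 80.6 CPM off doxycycline, against 14.6, 16.6 and 17.7 CPM on doxycycline, and its relative Wnt7b rose by a log2 change of 3.18 ± 0.21. Porcn, which acylates WNT ligands, rose by 1.48 ± 0.08, while Znrf3, which removes WNT receptors, and Lgr4, an R-spondin receptor, fell, with log2 changes of -1.02 ± 0.11 and -0.84 ± 0.07. Among NOTCH genes 11 of 19 rose (57.9%), including the ligand Jag2, with 79.7, 79.3 and 83.9 CPM off doxycycline, against 25.3, 27.5 and 23 CPM on doxycycline, and the receptor Notch1 by 0.72 ± 0.09. TGF-beta and BMP genes rose in 23 of 36 cases (63.9%) and fell in 6, including Tgfb1 at 0.86 ± 0.11, Bmp2 at 1.59 ± 0.18 and the feedback inhibitor Smad7 at 0.82 ± 0.09 on the log2 scale. Of 32 tested members of the Hippo list, which holds targets of YAP and TEAD, 20 rose (62.5%) and 5 fell. Ankrd1, a YAP target that encodes an ankyrin-repeat protein, had 531, 551 and 552 CPM off doxycycline, against 97, 92.3 and 94 CPM on doxycycline. Ccn1, a matricellular protein, had 255, 249 and 261 CPM off doxycycline, against 53.9, 59.4 and 54 CPM on doxycycline, and Vgll3, a TEAD cofactor, rose by 3.22 ± 0.21. Egfr, the EGF receptor, had 90.6, 115 and 98.6 CPM off doxycycline, against 28.3, 31 and 30.2 CPM on doxycycline. Erbb3, its kinase-impaired relative, fell, with 4.64, 4.01 and 4.06 CPM off doxycycline, against 19.8, 21.1 and 22.2 CPM on doxycycline. The RAS and MAPK feedback phosphatase Dusp1 had 39.4, 40.2 and 40 CPM off doxycycline, against 3.32, 4.38 and 6.04 CPM on doxycycline, and Spry1, another feedback inhibitor, fell, with a log2 change of -1.58 ± 0.12. Guidance receptor Plxnd1 rose by 3.20 ± 0.17, and the semaphorin Sema4g fell, with a log2 change of -1.73 ± 0.08.

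Antigen presentation genes mostly rose. Of 20 tested genes of MHC class I and antigen processing 13 rose (65%) and 2 fell (1 without off-doxycycline replicate 1 or 2 or on-doxycycline replicate 3). B2m, the light chain of class I molecules, had 68.9, 68.7 and 72.7 CPM off doxycycline, against 32.2, 31.9 and 25.6 CPM on doxycycline. H2-K1, a classical heavy chain, had 47.4, 45.6 and 49.3 CPM off doxycycline, against 26.3, 25.7 and 26.6 CPM on doxycycline. Both moved with the immune markers Cd14 and Cd68, whose part in the result was not tested, while 9 of 20 immune markers were at 0 in every library. Ddx58, the RNA sensor RIG-I, rose by a log2 change of 1.37 ± 0.18, and 12 of 27 interferon and innate genes rose (44.4%). The 1 that fell (2 without off-doxycycline replicate 2) was the DNA sensor Cgas, at 3.91, 4.79 and 3.26 CPM off doxycycline, against 5.4, 6.26 and 6.8 CPM on doxycycline. Complement and acute phase genes rose in 7 of 8 cases tested (87.5%), among them Cd55, a shield against complement, with 58.9, 63.7 and 62.1 CPM off doxycycline, against 8.23, 6.26 and 8.53 CPM on doxycycline.

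Smaller groups changed in both directions. Of 15 imprinted genes 9 fell (60%) and 2 rose, with Phlda2, a growth-restraining gene of the placenta, among them at a log2 change of -0.77 ± 0.11. The circadian list held 7 falls among 15 genes (46.7%), including Arntl, the core activator BMAL1, with 9.58, 9.73 and 8.5 CPM off doxycycline, against 21.9, 19.7 and 19.6 CPM on doxycycline, and 5 rises. For copper, zinc and iron the falls were 12 of 24 (50%), including Tfrc, the transferrin receptor, with 446, 416 and 359.6 CPM off doxycycline, against 769.7, 799 and 863 CPM on doxycycline. Slc40a1, the iron exporter ferroportin, fell, with a log2 change of -1.30 ± 0.08. Among cilium genes 13 of 39 rose (33.3%) and 11 fell (28.2%), close to the shares over all genes.

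The other 2 sets, each with libraries of its own, moved mostly the same way. Of 4429 genes that rose in KPsh cells over 10 days and were tested in KPnull cells, 2831 also rose with p53WT against vector, 63.9% of the KPsh list and 79.2% of the 3576 that rose in KPnull cells, where 25.5% of all genes tested rose. Of 4303 that fell, 2701 also fell, 62.8% of the KPsh list and 73.9% of the KPnull list, where 25.1% of all genes fell. In the 6-day set 3189 of 4390 rises were shared, 72.6% of the 10-day list and 62.8% of the 6-day list, and 3189 of 4331 falls, 73.6% and 60.6%. The shares over all genes of the 6-day set were 37.3% higher and 36.3% lower. Called higher in all 3 sets were 2322 genes, and called lower 2321, of 13149 tested in all. The sets differ in time and in Trp53 level, and the KPnull set also differs in line and in having doxycycline in both groups. The 6-day cells carried the Pcyt2 knockout and cDNA, and they lacked the chromosome Y RNA of the 10-day cells. Changes in the opposite direction were fewer, 165 and 113 genes against KPnull cells (3.73% and 2.63% of the 10-day lists) and 458 and 508 against the 6-day cells (10.4% and 11.7%).

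Some gastric-type genes went the other way in KPnull cells, while Ctse rose there too, with 169 and 178 CPM with p53WT, against 57.1 and 57.9 CPM with vector. Muc5ac had 2.69 and 3.18 CPM with p53WT, against 8.86 and 10.1 CPM with vector. Gkn2 had 1.5 and 1.78 CPM with p53WT, against 3.98 and 3.12 CPM with vector. Bace2, a membrane protease, and Anxa10 were lower with p53WT than with vector, with log2 changes of -0.64 ± 0.11 and -0.65 ± 0.08, while in the 10-day cells Bace2 had 19.3, 18.9 and 19.2 CPM off doxycycline, against 2.12, 3.55 and 2.42 CPM on doxycycline. Muc4, which fell over 10 days, had 2.72 and 2.94 CPM with p53WT, against 0.74 and 0.789 CPM with vector. Cxcl5 likewise was higher with p53WT, at 227 and 224 CPM with p53WT, against 185 and 169 CPM with vector. In the 6-day KPsh cells Muc5ac, Gkn2, Anxa10 and Ctse rose as they did over 10 days, and Muc5ac had 23.3 and 25.6 CPM off doxycycline, against 0 and 0 CPM on doxycycline. Gkn2 was near the floor there, with 0.654 and 0.996 CPM off doxycycline, against 0 and 0 CPM on doxycycline.

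Several matrix and growth factor genes that rose over 10 days were lower off doxycycline in the 6-day set. Ccn1 had 47 and 41.9 CPM off doxycycline, against 71.9 and 70.5 CPM on doxycycline. Loxl2, a collagen crosslinking oxidase, and Csf1, the macrophage growth factor, fell there, with log2 changes of -1.70 ± 0.12 and -1.47 ± 0.09, against rises of 1.21 ± 0.07 and 0.84 ± 0.07 over 10 days. In KPnull cells all 3 rose, with Ccn1 at 632 and 589.6 CPM with p53WT, against 179.8 and 183 CPM with vector. The 13 EMT genes tested held 10 rises over 10 days, and 2 rises and 7 falls in the 6-day set. Erbb3, Slc7a11, Sema4g and Kitl, a ligand of the KIT receptor, showed the reverse, with falls over 10 days and rises off doxycycline in the 6-day set. Slc7a11 for instance had 128 and 148 CPM off doxycycline, against 84.3 and 82.4 CPM on doxycycline. Differences between the sets were not tested, because their libraries were counted in separate tables.

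**Figure D5:**
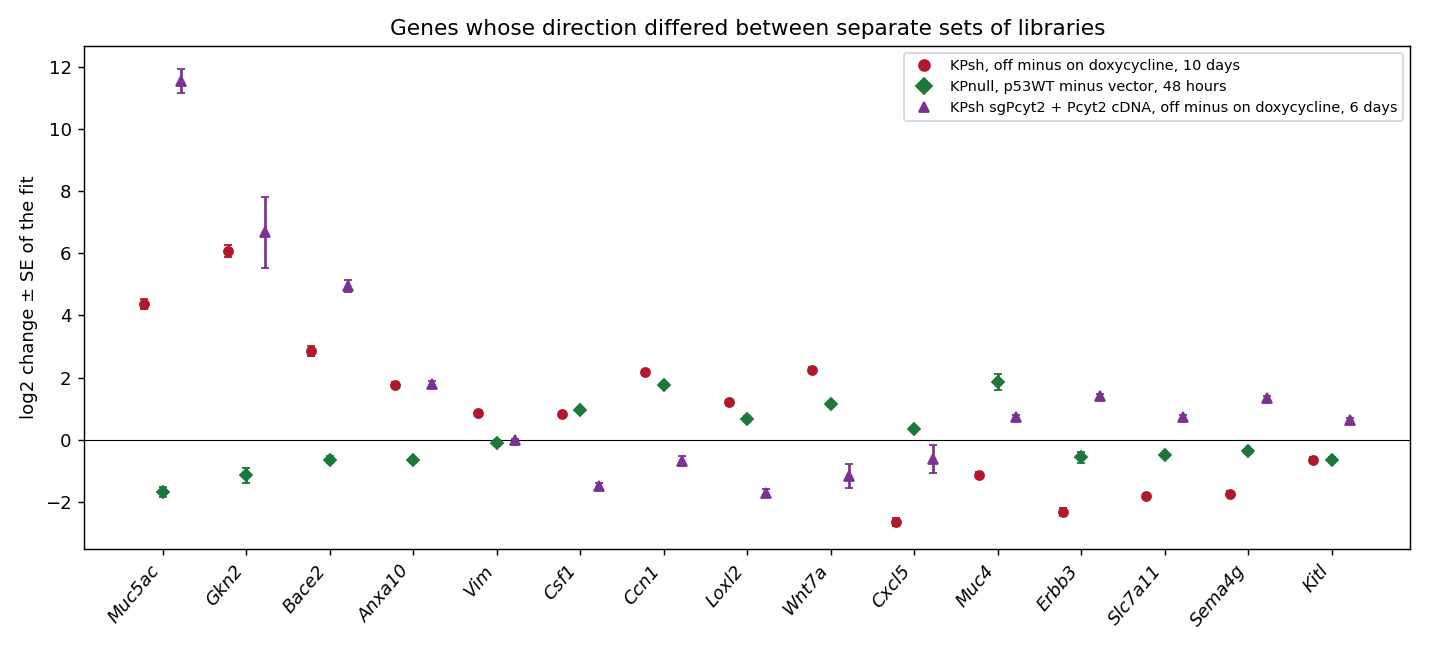
Log2 change ± standard error of 15 genes in 3 separate comparisons: KPsh off-doxycycline minus on-doxycycline for 10 days (3 libraries each), KPnull p53WT minus vector for 48 hours (2 each) and KPsh with Pcyt2 cDNA off-doxycycline minus on-doxycycline for 6 days (2 each). Muc5ac, Gkn2, Bace2 and Anxa10 lie above 0 in both KPsh sets and below 0 in KPnull cells, and Csf1, Ccn1, Loxl2 and Wnt7a lie above 0 in the other 2 sets and below 0 in the 6-day set.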

How the data were processed

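Per the labels' protocols, TRIzol RNA of mouse PDAC cell lines went into stranded mRNA libraries. The values are expected counts per gene, in steps of 0.5 and without normalization, that the authors deposited. The submitters' processing notes name STAR 2.6.1c, HOMER and the build mm10. Per the file headers HOMER counted reads on both strands over exons of the GENCODE vM25 annotation, with 1 transcript per gene, so reads of genes that overlap on opposite strands cannot be told apart. Shares of exon bases were taken from another GENCODE release, over the exons of all transcripts of each tested gene. They are therefore not shares of the 1 transcript counted. Columns were matched to samples by name, and the off-doxycycline columns of the 10-day table, which carry only a day, by elimination. All columns were used.

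Each count was rounded to a whole number, which moved no library total by more than 0.0533%. Genes passing edgeR's filterByExpr were scaled by TMM and tested with edgeR's robust quasi-likelihood test (R 4.3.3 with edgeR 4.0.16 and limma 3.58.1), off-doxycycline minus on-doxycycline, with Benjamini-Hochberg adjustment over all 13990 genes and calls at an adjusted p under 0.05. The fit had 4 residual degrees of freedom and a biological coefficient of variation of 0.0582. glmTreat tested for changes beyond 1.5-fold. Library totals of 9393966 to 12983420 counts set the precision, and replicate libraries of a group differed by more than counting noise. CPM use TMM-scaled library sizes, and TPM were computed from counts and the deposited gene lengths. The KPnull and 6-day tables were fitted alone, over all their groups, and nothing was tested between tables. Alternatives were DESeq2 1.42.0, RLE size factors, no filter, a replicate block and leaving out each library. The script was tested on simulated data.

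Genes were named by rule: Trp53, members of the p53 lists, up to 6 called members of each other list with the largest changes and at least 5 CPM, the 15 highest and 15 lowest called changes at that level, the 12 largest gains and losses in TPM, genes at 0 in 1 group with at least 5 CPM in the other, 6 genes each way that were called the opposite way in KPnull cells, and genes with a printed promoter. Not all genes chosen by the rule are printed, and genes whose call was lost under an alternative were left out, apart from Cdh1. The Y-linked genes were chosen after their values were seen. The gene lists and the members were chosen with earlier results of these data known. In total 107 gene symbols are shared by more than 1 identifier, and the more abundant one was used. Promoter sequences are RefSeq's, on GRCm38.p6, for 9883 tested genes in 12643 windows.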

Additional observations from a re-analysis of the deposited data

Results flagged for a closer look

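Genes named above were picked out where they were called in opposite directions in 2 separate comparisons, with every library of one group beyond every library of the other in each. Values are log2 changes ± standard error, first for the 10-day KPsh cells off doxycycline minus on doxycycline. The difference between comparisons was not tested, since the tables were counted and scaled separately.

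Against wild-type p53 in KPnull cells (p53WT minus vector, 48 hours), 4 genes that rose over 10 days fell. Muc5ac was at 4.37 ± 0.15 over 10 days and at -1.68 ± 0.17 in KPnull cells. Gkn2 was at 6.08 ± 0.19 and -1.14 ± 0.23, Bace2 at 2.85 ± 0.16 and -0.64 ± 0.11, and Anxa10 at 1.78 ± 0.08 and -0.65 ± 0.08. In the other direction, Muc4 was at -1.12 ± 0.09 over 10 days and 1.86 ± 0.26 in KPnull cells, and Cxcl5 at -2.64 ± 0.14 and 0.35 ± 0.07.

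Against the Pcyt2 cDNA cells (off doxycycline minus on doxycycline, 6 days), 5 genes rose over 10 days and fell over 6 days. Ccn1 was at 2.19 ± 0.06 over 10 days and -0.68 ± 0.17 over 6 days. Loxl2 was at 1.21 ± 0.07 and -1.70 ± 0.12, and Sparc at 1.46 ± 0.08 and -0.63 ± 0.15. Csf1 was at 0.84 ± 0.07 and -1.47 ± 0.09, and Wnt7a, at 1.69 CPM or less in every 6-day library, at 2.26 ± 0.08 and -1.16 ± 0.39.

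The reverse, a fall over 10 days and a rise over 6 days, held for 12 genes. Erbb3 was at -2.31 ± 0.13 over 10 days and 1.40 ± 0.09 over 6 days, Slc7a11 at -1.80 ± 0.07 and 0.73 ± 0.08, and Sema4g at -1.73 ± 0.08 and 1.35 ± 0.06. Slc40a1 was at -1.30 ± 0.08 and 0.75 ± 0.07, Onecut2 at -1.94 ± 0.08 and 0.52 ± 0.07, and Lgals4 at -0.71 ± 0.06 and 0.96 ± 0.04. Muc4 was at -1.12 ± 0.09 and 0.75 ± 0.06, Lgr4 at -0.84 ± 0.07 and 0.59 ± 0.05, and Kitl at -0.64 ± 0.09 and 0.65 ± 0.05. Rev3l was at -0.79 ± 0.09 and 0.30 ± 0.07, Akr1c19 at -2.57 ± 0.08 and 0.17 ± 0.06, and Cdh1 at -0.14 ± 0.05 and 1.03 ± 0.04.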

How the results depend on the processing

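Counts of called genes stayed within 1.5 times of those reported under all alternatives run. The 4624 genes higher and 4439 lower became 4142 and 4007 with DESeq2, 4559 and 4514 with RLE size factors and 5025 and 4645 with no filter on low counts. With 1 library left out they ranged from 4286 to 4653 higher and from 4198 to 4385 lower. Beyond 1.5-fold, leaving out a library gave 1735 to 1873 higher and 921 to 1053 lower. RLE scaling shifted the median log2 change by -0.01. Of the 386 genes chosen by the naming rule, printed or not, 16 lost their call under at least 1 alternative. Over these genes 3808 of 3860 values under alternatives kept their direction and side of the threshold, 49 fell short of the threshold, 3 newly passed it and none reversed. The genes that lost a call were left out of the text, so the printed genes are no measure of stability. Cdh1, a marker outside the rule, was at a log2 change of -0.14 (edgeR adjusted p = 0.0555) with the replicate block and -0.11 (0.0798) without off-doxycycline replicate 1. The gene lists were not counted with DESeq2. Under the other alternatives 1324 of their counts and medians kept within the limits set (1.5 times, or 0.1 on the log2 scale) and 26 did not.

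No pairing by replicate number was seen, with libraries of the same number correlated at -0.126, -0.116 and -0.0996 in their deviations from the group means. Deviations from a shared mean constrain each other, so these correlations cannot decide whether libraries were paired. With the replicate block 4432 genes were higher and 4233 lower, and beyond 1.5-fold 1777 and 948. In KPnull cells the correlation was -0.173, and the 3841 genes higher and 3782 lower became 3802 and 3746 with the block and 3716 and 3643 with the pairing crossed, an alternative chosen after seeing the data. In the 6-day set the correlation was -0.0249, and the block gave 5505 higher and 5354 lower against 5557 and 5413 without it. Leaving out a library gave 3211 to 3809 higher and 2982 to 3466 lower in KPnull cells, and 5074 to 5280 higher and 4970 to 5173 lower in the 6-day set.

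With 3 libraries per group, 1 cell line and 1 time point, the data describe these cultures and not how the changes unfold. Doxycycline and p53 changed together. Totals of 9393966 to 12983420 counts per library limit what can be seen in genes with few counts. Genes below the filter were not in the main test. Where their levels are printed, as for Epcam, Ptprc and Lyz2, no difference was tested. The same holds for genes below the filter in the other sets, such as Gli2 and Cdkn2b in KPnull cells. Levels in separate tables were scaled separately.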

Other observations

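Some genes differed in level between the 2 sets of KPsh libraries whatever the doxycycline state, a pattern chosen after its values were seen and read across tables scaled separately. At least 10 CPM in all 6 libraries of the 10-day set and under 1 CPM in all 4 libraries of the 6-day Pcyt2 cDNA set was found for 27 genes, and the converse for 0 genes. The 27 include the matrix and protease genes Mmp14, Serpinh1, Timp3 and Tnc, the secreted ductal proteins Tff1 and Wfdc2, the membrane mucin Muc1, Tead2, a partner of YAP, and the Y-linked Eif2s3y. Krt7, which rose over 10 days, had 1.83 and 1.87 CPM off doxycycline, against 0.478 and 0.472 CPM on doxycycline in the 6-day set and 569.8 and 532 CPM with p53WT, against 155 and 164 CPM with vector in KPnull cells. Igfbp5 and Peg10, among the largest falls over 10 days, were at 0 CPM in all 4 libraries of the 6-day set. Cdkn2b was at 126 and 120.3 CPM off doxycycline, against 58.2 and 61.2 CPM on doxycycline in the 6-day set and at 0.0626 and 0 CPM with p53WT, against 0.051 and 0.0657 CPM with vector in KPnull cells. No explanation for these levels was tested.

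In families taken by gene name, some of whose members also stand in the lists above, replication-licensing Mcm genes fell in 9 of 9 cases tested, with a median log2 change of -0.63, and kinesin genes fell in 17 of 27 (63%) and rose in 6. Of 78 subunits of the mitochondrial ribosome 34 fell (43.6%) and 8 rose, while complex I subunits of the Nduf family rose in 19 of 46 cases (41.3%) and fell in 6. The tRNA synthetases taken, which left out the separate mitochondrial enzymes, were lower for 13 of 20 (65%) and higher for 4. Genes named Zfp, for zinc finger proteins, were lower for 97 of 318 (30.5%), close to the share over all genes, and higher for 57 (17.9%). Solute carriers rose in 91 of 207 (44%) and fell in 56 (27.1%).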
